A study of Ostreococcus tauri with 84 samples.

Results

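The transcripts described here are those of UTP14 (ostta04g00770) and BMS1 (ostta05g01080), 2 of the 7668 genes of Ostreococcus tauri with a value in both deposited expression tables. They were chosen by gene ID and followed in all 84 RNA libraries. Strain RCC4221, a unicellular marine green alga, grew in continuous photochemostat cultures under long days (LD, 16 h light and 8 h dark) or short days (SD, 8 h light and 16 h dark). Cultures from each photoperiod were then released into constant light (LL after LD, LL after SD) or constant darkness (DD after LD, DD after SD), with no sampling on the first day of constant conditions. Every regime was sampled at 6 time points 4 h apart, called ZT from lights on or CT from subjective dawn, with 3 samples per time point under diel cycles (sample numbers 1 to 3) and 2 in LL (numbers 4 and 5) and DD (6 and 7). The numbers stand for consecutive days, so p-values measure the spread between days. LD and SD cultures were separate, and SD cultures were diluted more slowly, so photoperiod, culture and dilution rate cannot be told apart. LL and DD continued the cultures of each photoperiod, so constant conditions and the later time of sampling cannot be told apart. Diel light rose and fell gradually and LL was held at its maximum, so light level cannot be told apart from constancy either. Fresh medium was added during the light period, so its supply may also have differed in LL and DD.

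Ribosomes are put together in the nucleolus by a large cast of assembly factors. The small-subunit processome is the particle that forms on the nascent ribosomal RNA precursor and folds and cleaves the part that becomes the 40S subunit. In budding yeast, Utp14 is a processome component that activates the helicase Dhr1, which unwinds the U3 small nucleolar RNA from the precursor, and Bms1 is the GTPase of the same particle. Genes of this kind are known in many eukaryotes for being transcribed together when cells prepare to grow.

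The gene annotation of the study names the processome protein Utp14 for ostta04g00770. For ostta05g01080 it names a C-terminal domain that BMS1 shares with the 40S factor TSR1, and the name BMS1 follows the study. In the RefSeq gene table (assembly version 140606), UTP14 is on chromosome 4 and BMS1 on chromosome 5. Their models are 2433 and 2544 bases long, equal to the span of each gene, so neither holds an intron. The genes on either side of UTP14 lie 211 and 24 bases away, and those around BMS1 423 and 199 bases. Whether reads were counted by strand is not given in the sources used here, so reads that run over from these neighbours could not be told apart.

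Values are FPKM, fragments per 1000 bases of transcript and per 1000000 mapped reads, so UTP14 and BMS1 can be compared with each other and with genes of other lengths. FPKM are shares of the mapped reads, and a higher share through more UTP14 or BMS1 RNA per cell cannot be told apart from less of other RNA. Mapped reads, estimated from the steps between the lowest values, were 510000 to 14230000 per library (median 8400000). Of the 84 libraries, 5 had under 3000000 reads, namely LD sample number 3 at ZT0, ZT4, ZT8 and ZT12 and LL after LD sample number 4 at CT0. Some of the results that rest on these libraries are also given without them.

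UTP14 cycled between high values around dawn and low values at midday in LD. At ZT0 the 3 samples held 75.3, 66.4 and 91.0 FPKM, at ZT4 15.1, 11.4 and 24.8, and at ZT8 3.03, 2.23 and 3.87. Values of 5.13, 4.86 and 4.66 FPKM followed at ZT12, then 20.7, 28.5 and 25.2 at ZT16 and 46.9, 46.4 and 40.9 at ZT20. All samples of ZT0 lay above all others, and all those of ZT8 below. The ratio of the highest to the lowest time within a day was 24.8, 29.7 and 23.5 on the 3 days. In SD the peak moved to the early night. UTP14 stood at 5.50, 6.11 and 5.06 FPKM at ZT0, at 5.72, 5.59 and 5.03 at ZT4 and at 5.73, 8.41 and 9.75 at ZT8, the time of lights off. Samples of ZT12 held 47.5, 36.8 and 51.8 FPKM, those of ZT16 33.5, 25.5 and 28.1, and those of ZT20 10.1, 11.4 and 6.89. ZT12 was the highest time on each of the 3 days, with 8.63, 6.59 and 10.3 times the lowest value of the day. SD therefore showed 1 rise after dusk and a low plateau through the light period, whereas LD showed a rise from ZT12 through the night to dawn.

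BMS1 had the same course in LD. Its 3 samples held 89.1, 72.4 and 88.6 FPKM at ZT0 and 27.1, 13.6 and 21.3 at ZT4, and at ZT8 the values were 0.188 and 2.61, with the third sample listed at 0. The listed 0 belongs to a library of 1500000 reads in which 1007 genes are at 0, and 3 reads of BMS1 would be 0.786 FPKM there. Samples of ZT12 held 4.98, 4.06 and 16.3 FPKM, those of ZT16 32.4, 40.3 and 45.4, and those of ZT20 69.3, 51.9 and 57.5. ZT0 was again the highest and ZT8 the lowest time on each day. The SD samples of BMS1 stood at 2.43, 1.73 and 3.07 FPKM at ZT0, 3.80, 3.63 and 6.95 at ZT4 and 5.86, 12.4 and 14.2 at ZT8. They reached 62.2, 56.7 and 54.5 FPKM at ZT12 and 47.4, 46.6 and 44.1 at ZT16, and held 11.7, 12.2 and 5.85 at ZT20. The highest value of a day was 25.6, 32.8 and 17.7 times the lowest. At ZT0 every SD sample of both genes lay below every LD sample, and at ZT12 every SD sample lay above. The study picked both genes as examples of transcripts with such peaks in LD and SD, and UTP14 also as an example of cycling in DD, so these peaks are a description and carry no test.

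**Figure D1:**
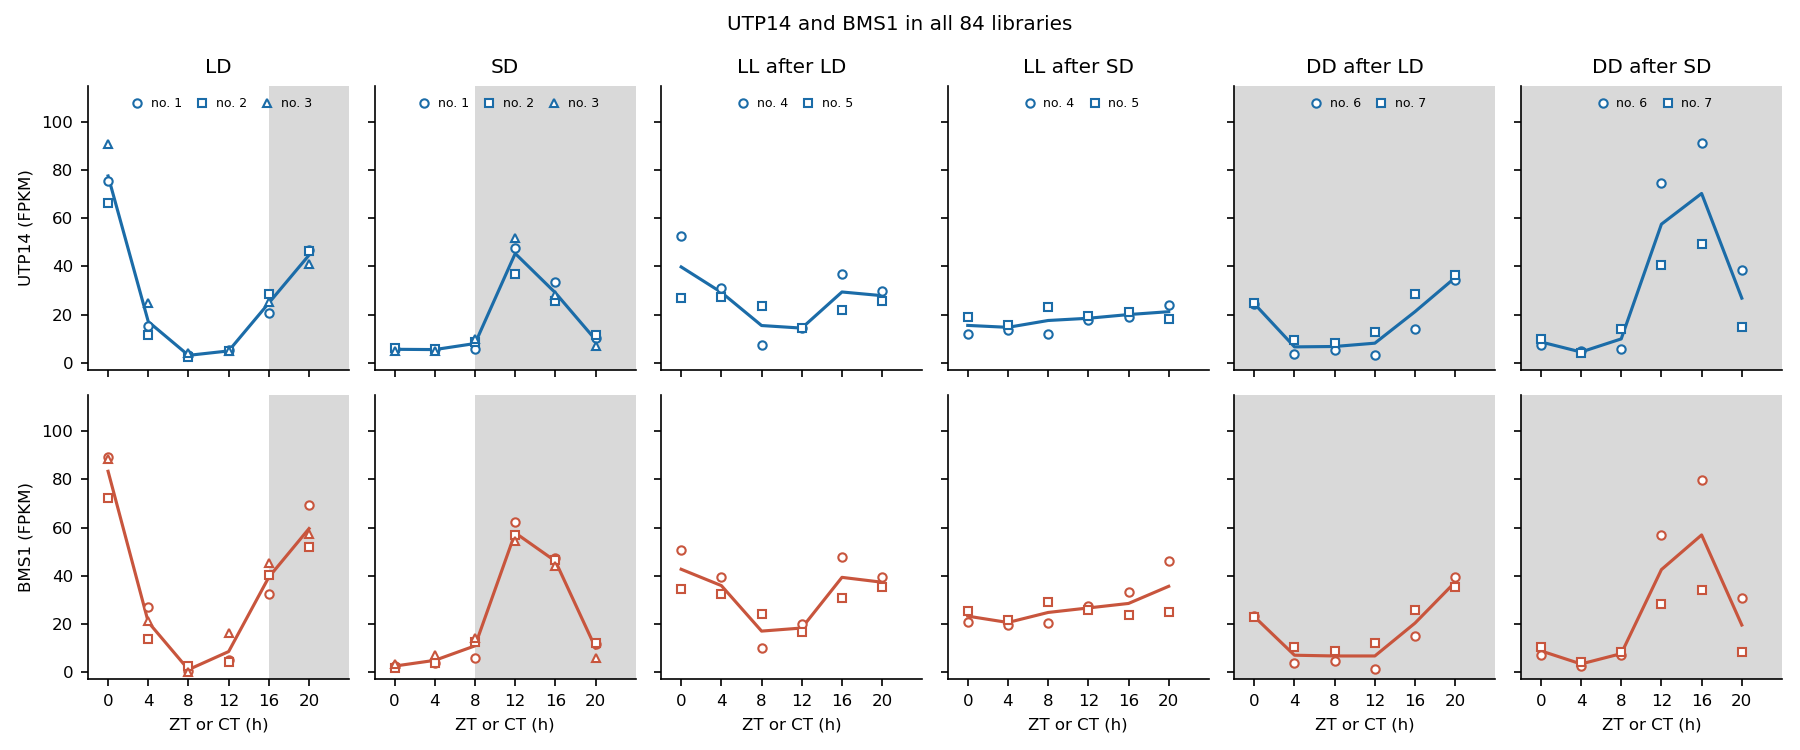
UTP14 (upper row) and BMS1 (lower row) in FPKM against time of day in hours, 1 panel per regime, with 1 point per library, the shape giving the sample number, lines through the means and grey for darkness. Both genes are highest at 0 h in LD and at 12 h in SD, are nearly level in LL after SD, and in DD after SD stand highest at 16 h.

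In constant light the cycle was shallow. UTP14 in LL after LD held 52.6 and 26.9 FPKM at CT0, 31.0 and 27.4 at CT4, 7.49 and 23.4 at CT8, 14.3 and 14.4 at CT12, 36.7 and 22.1 at CT16, and 30.0 and 25.7 at CT20. BMS1 held 50.7 and 34.6 FPKM at CT0, 39.4 and 32.3 at CT4, 10.02 and 23.9 at CT8, 19.9 and 16.6 at CT12, 47.8 and 30.7 at CT16, and 39.4 and 35.1 at CT20. The first value of each pair is sample number 4, the day with the wider swing. On that day the highest UTP14 value was 7.03 times the lowest and that of BMS1 5.06 times, against 1.91 and 2.12 times on the day of number 5. The highest value of number 4, at CT0 for both genes, comes from a shallow library. The low point sat at CT8 on the first of these days and at CT12 on the second, for both genes.

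LL after SD was flatter still. UTP14 held 11.99 and 19.0 FPKM at CT0, 13.6 and 15.8 at CT4, 11.7 and 23.3 at CT8, 17.6 and 19.3 at CT12, 19.1 and 20.9 at CT16, and 24.1 and 18.3 at CT20. BMS1 held 20.9 and 25.4 FPKM at CT0, 19.5 and 21.5 at CT4, 20.5 and 28.9 at CT8, 27.5 and 25.6 at CT12, 33.3 and 23.6 at CT16, and 46.1 and 25.0 at CT20. The highest time was CT20 on the day of number 4 and CT8 on the day of number 5 for both genes, so the 2 days did not share a peak. A permutation rank test of a 24 h rhythm, which asks whether ranks rise to 1 peak and fall again, called neither gene. The adjusted p of this test was 0.314 for UTP14 and 0.261 for BMS1 in LL after LD, and 0.874 and 0.816 in LL after SD. The study showed UTP14 in LL beside the DD course for which it was picked, so its LL result is not free of that choice. The share of all genes called in LL was 0% after LD and 0% after SD by this permutation test, so the missing calls set UTP14 and BMS1 apart from no other gene. The lowest adjusted p over all genes was 0.132 after LD and 0.073 after SD. The study, with another rhythm test (RAIN), reported genes that kept cycling in LL after both photoperiods. For ribosome biogenesis genes it described cycling in DD and a loss of it in LL. It also found this process enriched among the genes that cycled in both LL and DD after LD but not after SD. With no gene called in LL by the permutation test, the missing calls here do not show that rhythms were absent. limma with cosine and sine terms gave adjusted p of 0.134 and 0.128 in LL after LD and 0.623 and 0.553 in LL after SD. Its unadjusted p was 0.018 and 0.0068 in LL after LD, where 2190 of 7668 genes had one under 0.05.

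In constant darkness both genes kept a large swing, at different times after the 2 photoperiods. UTP14 in DD after LD held 24.3 and 24.7 FPKM at CT0, 3.75 and 9.38 at CT4, 5.46 and 7.99 at CT8, 3.28 and 12.9 at CT12, 13.9 and 28.6 at CT16, and 34.2 and 36.6 at CT20. BMS1 held 23.1 and 22.8 FPKM at CT0, 3.71 and 10.1 at CT4, 4.39 and 8.82 at CT8, 1.12 and 12.1 at CT12, 14.8 and 25.7 at CT16, and 39.3 and 35.4 at CT20. Sample number 6, the first of each pair, was the lower at CT4, CT8, CT12 and CT16 for both genes, and CT20 was the highest time on both days.

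DD after SD placed the high values earlier. UTP14 held 7.27 and 9.97 FPKM at CT0, 5.03 and 3.83 at CT4, 5.77 and 14.0 at CT8, 74.5 and 40.7 at CT12, 91.3 and 49.4 at CT16, and 38.6 and 15.0 at CT20. BMS1 held 7.22 and 10.3 FPKM at CT0, 2.46 and 4.11 at CT4, 6.88 and 8.28 at CT8, 56.7 and 28.3 at CT12, 79.8 and 34.0 at CT16, and 30.7 and 8.22 at CT20. CT16 was the highest and CT4 the lowest time on both days. Sample number 6 was above number 7 at CT12, CT16 and CT20 for both genes.

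A cosine fitted to log2(FPKM + 1) summarises these courses as a description, with standard errors that take libraries as independent. The fitted peak of UTP14 fell at 21.7 ± 0.27 h (SE) in LD and 20.1 ± 0.74 h in the darkness that followed, and at 13.9 ± 0.41 h in SD and 15.3 ± 0.47 h in the darkness that followed. For BMS1 it fell at 21.1 ± 0.48 h, 20.5 ± 0.90 h, 13.6 ± 0.29 h and 15.3 ± 0.61 h in the same order. The fitted peak in darkness thus lay within 2 h of that in the preceding diel cycle for both genes, earlier after LD and later after SD. The highest sampled time moved by a full step of 4 h on every day. It went from ZT0 to CT20 after LD and from ZT12 to CT16 after SD. The amplitude, which is the log2 distance from the middle of the cosine to its peak, was 2.10 ± 0.15 for UTP14 in LD and 1.45 ± 0.16 in SD, and in DD 1.30 ± 0.25 after LD and 1.90 ± 0.24 after SD. In LL it was 0.68 ± 0.22 after LD and 0.24 ± 0.12 after SD. The amplitude of BMS1 was 2.56 ± 0.32 in LD, 0.69 ± 0.19 in the LL and 1.43 ± 0.34 in the DD that followed LD. It was 2.09 ± 0.16 in SD, 0.27 ± 0.12 in the LL and 1.76 ± 0.28 in the DD that followed SD.

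The level of each gene over the whole day was compared between regimes with limma on log2(FPKM + 1), as the mean over the 6 time points, with p-values adjusted over all 7668 genes (Benjamini-Hochberg). The level of both was lower in SD. UTP14 averaged 17.1 ± 1.30 FPKM in SD and 28.7 ± 2.70 in LD (SD of the daily means, n = 3 days each), a log2 difference of -0.47 ± 0.12 (SE, adjusted p = 0.0011, limma). BMS1 averaged 21.96 ± 0.46 FPKM in SD and 35.4 ± 4.00 in LD, a log2 difference of -0.53 ± 0.16 (adjusted p = 0.0053, limma). No daily mean in SD reached those of LD for either gene. Of all genes, 20.1% were lower in SD at this threshold. The BMS1 call was lost with a pseudocount of 0.1, which gives more weight to values near 0 (log2 difference of -0.33, adjusted p = 0.27, limma).

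LL after LD was higher than LD in the mean of the log values, while its mean FPKM was lower. UTP14 averaged 26.0 ± 3.80 FPKM in LL after LD (n = 2 days) against 28.7 in LD, while its mean log2(FPKM + 1) was 0.43 ± 0.13 higher (SE, adjusted p = 0.012, limma). BMS1 averaged 31.7 ± 4.01 FPKM against 35.4, and its mean log value was 0.63 ± 0.18 higher (adjusted p = 0.0061, limma). Low values weigh most on the log scale and high values on the FPKM scale, and LL samples lay above the LD samples at 8 h and below them at 0 h. Of all genes, 23.2% were higher in LL after LD on the log scale. With 1 value per day in place of 1 per library, UTP14 no longer passed (adjusted p = 0.11, limma) and BMS1 did (adjusted p = 0.025). Leaving out sample number 1, 2 or 4 also ended the UTP14 call (adjusted p of 0.069, 0.093 and 0.056), and leaving out number 4 or 5 that of BMS1 (0.10 and 0.059), by limma.

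LL after SD was higher than SD on the log scale for both genes. UTP14 averaged 17.9 ± 2.19 FPKM in LL against 17.1 in SD, with a log2 difference of 0.49 ± 0.13 (adjusted p = 0.0034, limma). BMS1 averaged 26.5 ± 2.11 FPKM against 21.96, with a log2 difference of 0.98 ± 0.18 (adjusted p = 2.4e-05, limma). Among all genes 24.2% were higher. With 1 value per day the adjusted p was 0.054 for UTP14, and without sample number 5 it was 0.086 (limma). BMS1 passed under every alternative run for this contrast.

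Between the 2 histories in LL, UTP14 was lower after SD by a log2 difference of -0.41 ± 0.15 (adjusted p = 0.026, limma) and BMS1 differed by -0.17 ± 0.19 (adjusted p = 0.54). Of all genes, 13.8% were lower in LL after SD. The UTP14 call ended without the 5 shallow libraries (log2 difference of -0.33, adjusted p = 0.054, limma), without sample number 4 (-0.23, adjusted p = 0.50) and with 1 value per day (adjusted p = 0.13). In DD the difference of SD history minus LD history was 0.44 ± 0.25 for UTP14 (adjusted p = 0.29, limma) and 0.22 ± 0.31 for BMS1 (adjusted p = 0.70), and 1.24% of all genes were higher after SD. The daily means of UTP14 in DD were 14.1 and 20.0 FPKM after LD and 37.1 and 22.1 after SD, and those of BMS1 14.4 and 19.2 against 30.6 and 15.5, so the days of BMS1 overlapped.

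By mean FPKM over the day, the order of the regimes was DD after SD (29.6 FPKM), LD, LL after LD, LL after SD, SD and DD after LD (17.1) for UTP14. For BMS1 it was LD, LL after LD, LL after SD, DD after SD (23.1 FPKM), SD and DD after LD (16.8). DD was deposited in a table of its own, so its place in this order was not tested. Among neighbours of the other regimes, daily means overlapped between LD and LL after LD for both genes and between LL after SD and SD for UTP14.

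**Figure D2:**
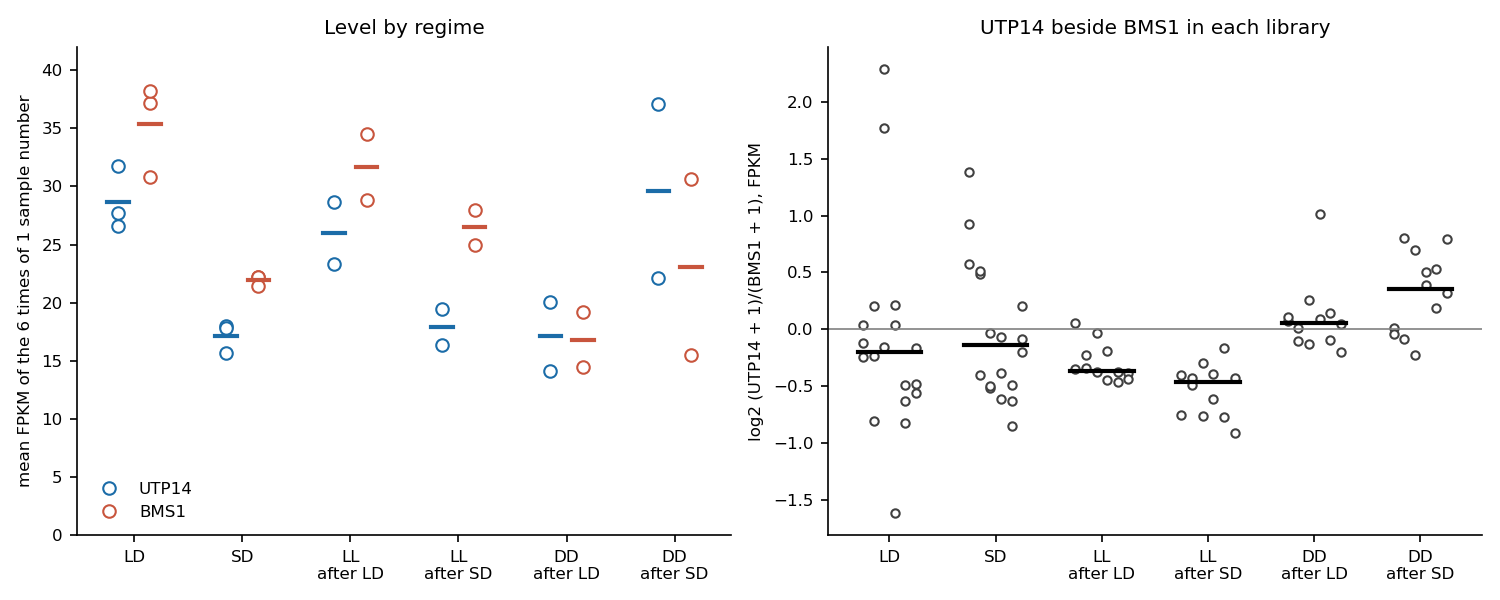
Left, mean FPKM over the 6 time points of each sample number by regime, with bars at the mean over sample numbers. Right, log2 of (UTP14 + 1) over (BMS1 + 1) in FPKM in each library, ordered by time within a regime, with bars at the median. All daily means of SD lie below those of LD, and the ratio lies below 0 in all 12 libraries of LL after SD.

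At matched times the midday low of both genes was shallower in LL after LD than in LD. In LL after LD, UTP14 was higher than in LD at ZT8 (log2 difference of 1.85 ± 0.32, adjusted p = 3.4e-05, limma) and at ZT12 (1.39 ± 0.32, adjusted p = 0.0081). At ZT0 it was lower (-1.01 ± 0.32, adjusted p = 0.015, limma). BMS1 was higher at ZT8 (3.35 ± 0.43, adjusted p = 1.8e-07, limma), where 1 LD library is listed at 0, and without the 5 shallow libraries the difference was 2.9998 ± 0.41. UTP14 thus passed at 3 of 6 times and BMS1 at 1 of 6, where 15.3% of all tests over genes and times passed. At ZT4 the differences were 0.81 ± 0.32 for UTP14 (adjusted p = 0.070, limma) and 0.81 ± 0.43 for BMS1 (adjusted p = 0.19). Without the shallow libraries, UTP14 also passed at ZT4 (adjusted p = 0.013, limma) and BMS1 at ZT12 (adjusted p = 0.0068). Without sample number 1 UTP14 passed at 1 time, without number 2 it no longer passed at 12 h (adjusted p = 0.077, limma), and without number 5 it passed at 0.

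After SD the differences lay at other times of day. UTP14 in LL was higher than in SD at ZT0 (1.30 ± 0.32, adjusted p = 0.0025, limma), ZT4 (1.28 ± 0.32, adjusted p = 0.0026) and ZT20 (1.10 ± 0.32, adjusted p = 0.024). It was lower at ZT12 (-1.24 ± 0.32, adjusted p = 0.0099, limma), the time of its SD peak. BMS1 was higher at ZT0 (2.84 ± 0.43, adjusted p = 3.4e-06, limma), ZT4 (1.94 ± 0.43, adjusted p = 7.4e-04) and ZT20 (1.74 ± 0.43, adjusted p = 0.0067). Its difference at ZT12 was -1.09 ± 0.43 (adjusted p = 0.11, limma). These are 4 of 6 times for UTP14 and 3 of 6 for BMS1, where 13.5% of all tests over genes and times passed. LL samples and SD samples did not overlap at any of the 6 times for either gene. The share of all genes without such overlap was not computed, so this is a description only. The UTP14 call at ZT20 ended under upper quartile scaling (adjusted p = 0.057, limma) and without any 1 of sample numbers 1 to 4, and that at ZT12 without number 1 or 4 and that at ZT0 without number 5. The BMS1 call at ZT20 ended with a pseudocount of 0.1 (0.079) and without number 4 (adjusted p = 0.29, limma), and without number 3 BMS1 passed at 5 times. Differences at LD ZT0 and SD ZT12 share the readout for which the study picked the 2 genes. Those at the low times of LD and SD belong to the same cycles and are not free of that choice.

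The history of photoperiod was compared at matched times within LL and within DD. In LL, 1 difference of SD history minus LD history passed, UTP14 at CT0 (-1.26 ± 0.36, adjusted p = 0.025, limma), and 4.1% of all tests over genes and times did. That value rests on the shallow library of 52.6 FPKM in LL after LD, and without it the difference was -0.79 (adjusted p = 0.32, limma). In DD, UTP14 at CT12 was higher after SD by 2.86 ± 0.61 (adjusted p = 0.013, limma) and BMS1 by 2.96 ± 0.75 (adjusted p = 0.024), with 6.61% of all tests passed. Leaving out sample number 6 or 7, which allows no test, gave 1.58 and 4.14 for UTP14 and 1.16 and 4.76 for BMS1. At CT16 the differences were 1.70 ± 0.61 for UTP14 (adjusted p = 0.068, limma) and 1.37 ± 0.75 for BMS1 (adjusted p = 0.22). With sample numbers taken to pair the DD samples (replicate block), UTP14 passed at CT16 too (adjusted p = 0.042, limma), giving 2 times in place of 1. At CT0 the differences were -1.42 ± 0.61 and -1.32 ± 0.75, short of the threshold (adjusted p = 0.62 and 0.70, limma).

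**Figure D3:**
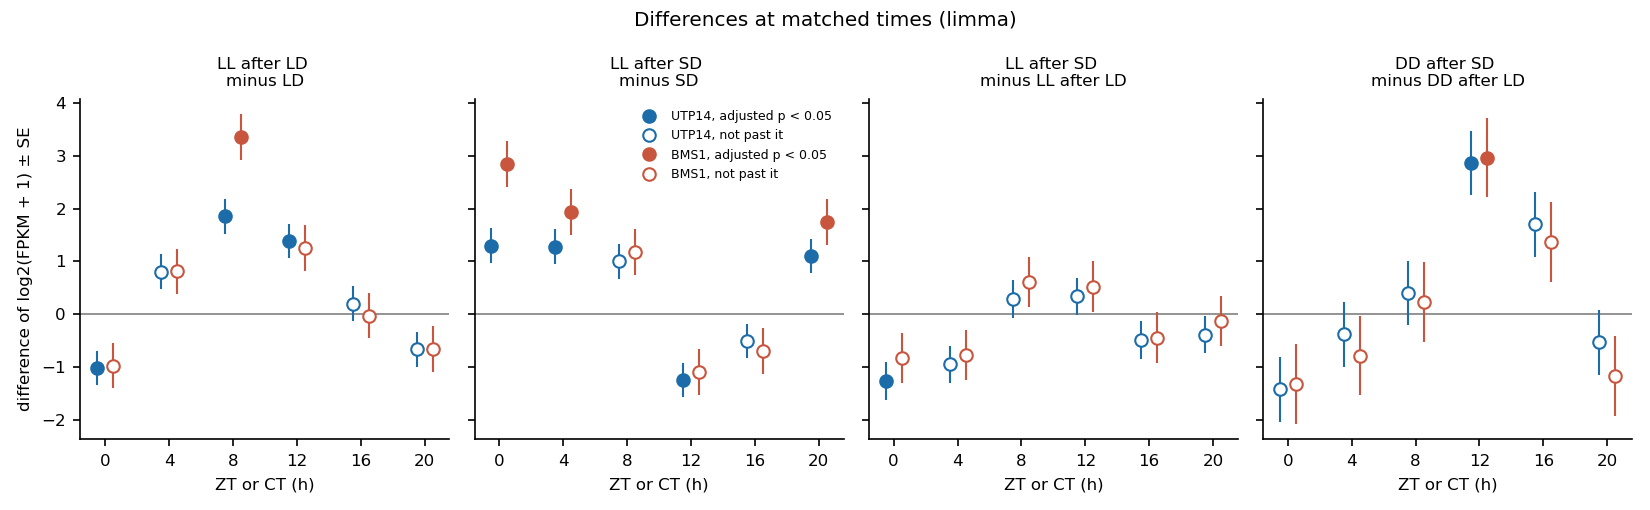
Differences of log2(FPKM + 1) at each time point with their standard errors from limma, UTP14 in blue and BMS1 in red, filled where the adjusted p passed 0.05. In LL after LD minus LD the values reach 1.85 and 3.35 at 8 h, and in DD after SD minus DD after LD 2.86 and 2.96 at 12 h.

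UTP14 and BMS1 kept close to each other in every regime. Across the 18 libraries of LD, Pearson's r of their log2(FPKM + 1) was 0.91 (Spearman's rho 0.97), and it was 0.95 in SD (rho 0.88). In LL r was 0.97 after LD and 0.77 after SD, and in DD it was 0.98 and 0.97, over 12 libraries each. Without the 2 libraries farthest from the median of UTP14 these became 0.90, 0.95, 0.96, 0.76, 0.99 and 0.95 in the same order. These are descriptions with no p, since the study chose both genes for the same times and libraries share days. Their ratio moved nonetheless. BMS1 was the higher in 12 of 18 libraries of LD, 12 of 18 of SD, 11 of 12 of LL after LD and 12 of 12 of LL after SD, but in 4 of 12 of DD after LD and 3 of 12 of DD after SD. The median log2 of UTP14 over BMS1, each plus 1 FPKM, was -0.20 in LD and -0.14 in SD. With LD history it was -0.36 in LL and 0.06 in DD, and with SD history -0.46 and 0.35. In SD the ratio went from 0.96 ± 0.41 (SD, n = 3) at ZT0, with UTP14 at a higher floor, to -0.65 ± 0.18 at ZT16, with BMS1 ahead. The DD values come from the other table and were not tested against the rest.

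The genes whose course was most like that of UTP14 over the 36 LD and SD libraries were found among 6880 genes of at least 10 FPKM on average. They were a gene with a helicase C-terminal domain (ostta05g02120, Pearson's r = 0.97), one with an armadillo-type fold (ostta11g00160, 0.96), a pentatricopeptide repeat gene (ostta01g05110, 0.96), bystin (ostta12g00070, 0.96), which in yeast acts in 40S export and processing, and a Sof1-like gene (ostta12g02010, 0.95), whose yeast namesake is a processome protein. The 5 most like BMS1 were a tRNA guanine-N-7 methyltransferase (ostta04g04470, r = 0.97), an unnamed product (ostta20g00120, 0.96), NOP52 (ostta14g00780, 0.96), an rRNA processing protein, a gene with the RNA-binding domain of ribosomal protein S1 (ostta04g01120, 0.95) and a tRNA uracil methyltransferase (ostta03g02610, 0.95). The r of UTP14 with BMS1 was 0.93, which placed each 33rd in the other's order. The helicase-domain gene was the most abundant of those like UTP14, at 337 ± 82.5 FPKM (SD, n = 3) at LD ZT0 and 8.81 ± 2.68 at ZT8. The tRNA methyltransferase ostta04g04470 stood near BMS1, with 89.0 ± 25.7 FPKM at LD ZT0 and 62.8 ± 7.63 at SD ZT12.

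A list of 35 further assembly factors, drawn from annotation words, covers 13 genes of the small-subunit processome, 4 of late 40S maturation and 18 of 60S assembly. In LD 22 of the 35 had their highest mean at ZT0 and 10 at ZT20, which is 62.9% and 28.6% of the list against 20.2% and 23.9% of all genes. In SD 28 of 35 stood highest at ZT12 (80.0% against 35.3% of all genes). In DD 30 of 35 stood highest at CT20 after LD (85.7% against 24.5%) and 24 at CT16 after SD (68.6% against 16.2%). All 4 factors of late 40S maturation, RIO2 and a second RIO kinase, the endonuclease NOB1 and TSR2, shared the times of UTP14 and BMS1 in all of LD, SD and DD. The rank test called 34 of 35 rhythmic in LD (69.4% of all genes) and 32 in SD (51.4%), by permutation. In LL it called 0 of 35 with either history. An unadjusted permutation p under 0.05 was reached by 15 factors after LD (22.1% of all genes) and 1 after SD (9.74% of all genes). limma with cosine and sine terms called 0 with either history (0% of all genes after LD and 0.261% after SD), and the replicate block, for which the LL days are not a pairing, gave 3 factors after LD (6.72% of all genes).

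In DD after SD the permutation rank test called 25 of the 35 factors (40.2% of all genes), and in DD after LD 0 (0.0261% of all genes), with 30 at an unadjusted p under 0.05 (35.4% of all genes). limma with cosine and sine terms called 33 of them after SD (50.8% of all genes) and 29 after LD (30.1%). With the replicate block, which takes sample numbers as a pairing of the DD days, the permutation test called 32 after SD (55% of all genes) and 29 after LD (50%). The count after LD depends on the block and the test, and so does the count over all genes.

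Between SD and LD, 26 of the 35 factors were lower in SD at ZT0 (median log2 difference of -2.41, against 0.08 over all genes, limma). Of all genes, 20.6% were lower at that time. At ZT12, 32 of 35 were higher in SD (median of 1.85 against 0.24), where 23.4% of all genes were. In LL after LD, 24 of 35 were higher than in LD at ZT8 (median of 1.43 against 0.20), where 17.8% of all genes were, and without sample number 5 this count was 6. In LL after SD, 25 were higher than in SD at ZT4 (median of 2.14 against 0.47), where 27.5% of all genes were. At 12 h, where UTP14 passed in both of these contrasts, few factors did. In LL after LD, 0 of 35 were higher than in LD (205 of 7668 genes were). In LL after SD, 2 of 35 were lower than in SD (390 of 7668 genes were). In DD at CT12, 25 of 35 were higher after SD than after LD (median of 1.97 against 0.02), where 7.32% of all genes were. The corresponding values of UTP14 and BMS1 were 1.85 and 3.35 at ZT8 in LL after LD, 1.28 and 1.94 at ZT4 in LL after SD, and 2.86 and 2.96 at CT12 in DD.

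**Figure D4:**
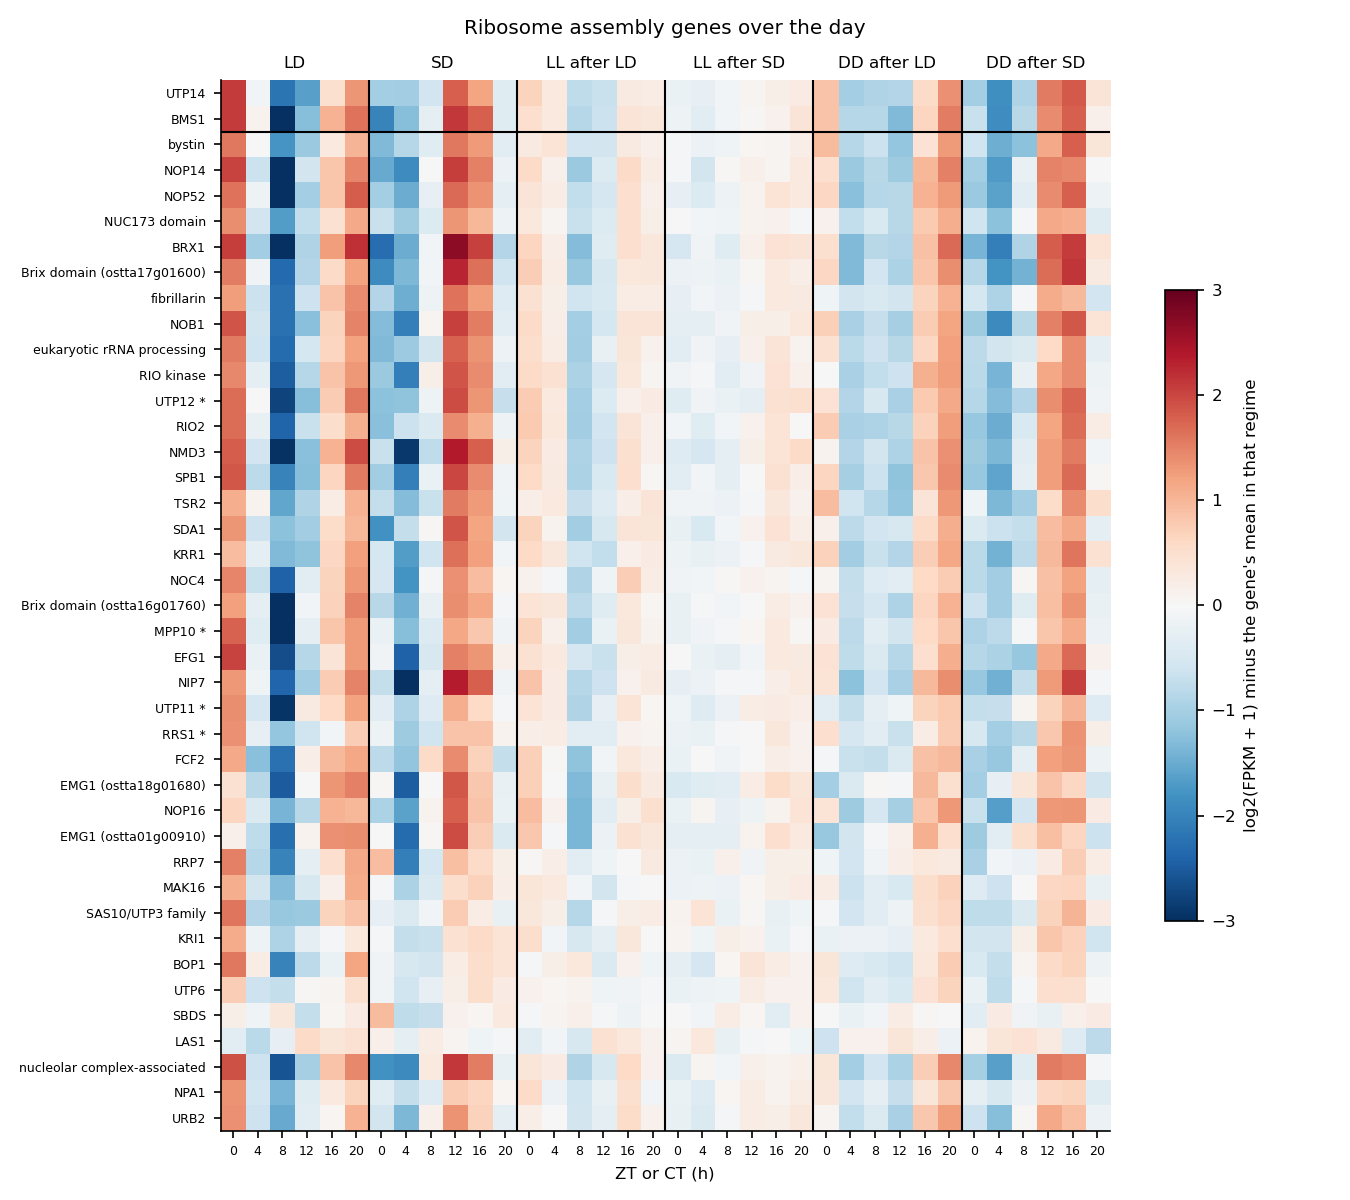
Mean log2(FPKM + 1) at each time point minus the mean of the gene in that regime, for UTP14, BMS1 and 39 further assembly factors ordered by likeness to the mean of the pair, the last 3 being too low for the ordering, with asterisks on the examples of the study. Red stands for values above the mean of the regime and blue for values below it. Most genes are red at 0 h in LD and at 12 h in SD, and pale in LL after SD.

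Likeness to the mean of UTP14 and BMS1 ran from 0.01 to 0.96 over the 32 list members of at least 10 FPKM, with a median r of 0.87 against 0.19 over all such genes. The 3 most like were bystin (r = 0.96), NOP14 (0.96), a processome protein that in yeast binds the 40S head, and NOP52 (0.95). NOP14 held 72.0 ± 7.99 FPKM (SD, n = 3) at LD ZT0 and 1.12 ± 0.38 at ZT8, and in SD 2.59 ± 0.55 at ZT0 and 42.7 ± 6.53 at ZT12. The least like were UTP6 (0.36), SBDS (0.06), the factor that helps to release eIF6 from the 60S subunit, and LAS1 (0.01), named for an endonuclease of the 60S pathway in yeast. UTP6 was abundant throughout, with 383 ± 99.6 FPKM at LD ZT0, 136 ± 13.7 at ZT8 and 479 ± 47.5 at SD ZT12. SBDS held 85.8 ± 15.0 FPKM at LD ZT8, the time at which UTP14 and BMS1 were lowest. LAS1 stayed between 12.7 ± 4.21 and 33.7 ± 7.25 FPKM in LD.

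The other examples of the study, MPP10, UTP11 and UTP12 of the processome and RRS1 of 60S assembly, are not independent evidence of the course of the pair, having been picked with it. MPP10 held 117 ± 2.02 FPKM (SD, n = 3) at LD ZT0 and 94.1 ± 9.95 at SD ZT12, and at LD ZT8 its samples ran from a listed 0 to 8.64. UTP12, the most like the pair of the 4 (r = 0.91), held 68.1 ± 24.7 FPKM at LD ZT0 and 41.3 ± 6.97 at SD ZT12. RRS1 had the highest floor of the 4 in LD, 41.7 ± 3.93 FPKM at LD ZT8. All 4 stood highest at CT20 in DD after LD and at CT16 in DD after SD.

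Only 2 genes of RNA polymerase I transcription were listed from annotation words, RRN3 and A49, whose products act on the ribosomal RNA precursor. Both stood highest at ZT0 in LD (20.2% of all genes did) and at ZT12 in SD (35.3% of all genes). Their median r to the mean of UTP14 and BMS1 was 0.84. A list of 18 ribosomal protein genes was put together in the same way. In LD 9 of them stood highest at ZT20 (23.9% of all genes did), 7 at ZT4 (12.3% of all genes) and 1 at ZT0. Their median log2 ratio of the highest to the lowest time was 0.91 in LD, against 3.53 for the 35 assembly factors and 1.61 for all genes. In SD it was 1.62, against 3.02 for the assembly factors and 1.11 for all genes. There 7 stood highest at ZT12 (35.3% of all genes did) and 11 at ZT16 (11.7% of all genes). The permutation rank test called 5 of the 18 in LD, where it called 69.4% of all genes, and 17 in SD, where it called 51.4%. Their median r to the mean of UTP14 and BMS1 was 0.60. That the 2 lists differ was not tested.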

How the data were processed

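Reads were single and 75 nt long. The authors ran the MARACAS pipeline, with FastQC for read quality, HISAT2 for alignment and StringTie and Ballgown for transcript levels. Tool versions are not given in the sources used here. The deposited values are FPKM, scaled within each library, in 1 table of 60 libraries (LD, SD, LL) and 1 of 24 (DD), and tests stayed within a table. Whole numbers, taken as lost decimal points, made up 182 values of DD. Dividing by 1000 moved 181 of them closer to the rest of their gene, and those were divided. No value of UTP14 or BMS1 was among them. Mapped reads were estimated by taking the 250 lowest values of a library, times gene length, as steps of 1 aligned base (tolerance 0.1), and limits from counts of 0 cover counting error only. Identical pairs of libraries numbered 0, and 7661 gene IDs matched the RefSeq gene table.

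limma 3.58.1 in R 4.3.3 was fitted to log2(FPKM + 1), with 1 mean per regime and time point and a trended eBayes. Fold changes on this scale understate those of low genes. Rhythms were tested with an umbrella rank test after the idea of RAIN (18 umbrellas, 1000000 permutations, numpy 2.4.6), because RAIN was not installed. P-values were adjusted over the 7668 genes (Benjamini-Hochberg, threshold 0.05). The limma level contrast of SD minus LD and the umbrella rank test were also run on simulated data, and the other tests were not. Alternatives were other pseudocounts, a filter, upper quartile scaling, 1 value per day, leaving out each sample number, a replicate block, a second rhythm test and, chosen after seeing the data, leaving out the 5 shallow libraries.

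Named are UTP14 and BMS1, the study's other assembly examples, the 5 genes most like each, and the 3 most and 3 least like within the assembly list. Members and lists were chosen with earlier results of these data known. Between the 2 histories in DD, samples sharing a number deviated together in 12 of 12 pairs (r of 0.33 to 0.63), so numbers pair the DD samples; the pairing comes from the data. No promoter or protein sequences were used here.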

Additional observations from a re-analysis of the deposited data

Results flagged for a closer look

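The step from the diel cycle into LL had a different size after SD than after LD at several times of day, by an interaction term in limma over all genes. The difference of log2 differences, after SD minus after LD, was 2.31 ± 0.46 (SE) for UTP14 and 3.81 ± 0.61 for BMS1 at 0 h (adjusted p = 2.1e-04 and 1.2e-05, limma), where 21.8% of all genes passed. At 12 h it was -2.63 ± 0.46 for UTP14 and -2.34 ± 0.61 for BMS1 (adjusted p = 1.1e-04 and 0.010, limma), with 9.18% of all genes. At 20 h it was 1.76 ± 0.46 and 2.40 ± 0.61 (adjusted p = 0.0071 and 0.0060, limma), with 10.5% of all genes, and at 8 h -2.17 ± 0.61 for BMS1 (adjusted p = 0.030), with 4.25%. At 0 h and 12 h every LL sample lay on opposite sides of its diel samples after the 2 photoperiods, for both genes. At every time the interaction holds the LD and SD values of that time, and the study picked the genes for their peaks in LD and SD. The differences at 0, 8, 12 and 20 h are therefore no separate support. The interaction was fitted with all libraries only, the shallow ones among them. Averaged over the day the interaction did not pass (0.06 ± 0.19 for UTP14 and 0.36 ± 0.25 for BMS1, adjusted p = 0.90 and 0.42, limma).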

How the results depend on the processing

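Level differences changed call as follows (log2, limma). With a pseudocount of 0.1, BMS1 in SD minus LD was -0.33 (adjusted p = 0.27), and with a pseudocount of 5, UTP14 in LL after LD minus LD was 0.25 (0.066). With 1 value per day UTP14 stayed at 0.43 for LL after LD minus LD, 0.49 for LL after SD minus SD and -0.41 between the histories in LL, none past the threshold. The last was also lost without the shallow libraries (-0.33). Leaving out 1 sample number gave ranges of 0.37 to 0.51 for UTP14 and 0.57 to 0.69 for BMS1 in LL after LD minus LD, 0.35 to 0.62 for UTP14 in LL after SD minus SD, and -0.59 to -0.23 for UTP14 between the histories in LL. In DD, where 1 sample per time allows no test, the range was -0.079 to 0.96 for UTP14 and -0.45 to 0.89 for BMS1.

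Times passed by BMS1 in LL after LD minus LD went from 1 to 2 with a pseudocount of 5 or without the shallow libraries (1 to 2 over the sample numbers left out), and in LL after SD minus SD from 3 to between 2 and 5. Those of UTP14 ranged from 0 to 4, 2 to 4 and 0 to 1 over sample numbers left out in LL after LD minus LD, LL after SD minus SD and between the histories in LL, the last also 0 without the shallow libraries. In DD UTP14 passed at 2 times with a pseudocount of 5. Assembly factors higher in LL after LD at 8 h ranged from 6 to 25.

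In LD and SD 7 of 18 pairs of same-numbered samples correlated over 0.1, and in LL 0 of 12, where as in DD each time point gives only 1 distinct value. These numbers were therefore not taken as a pairing. With the replicate block, UTP14 between the histories in LL was -0.41 (adjusted p = 0.081, limma) and passed at 0 times, in DD it passed at 2 times, and 3 assembly factors were rhythmic in LL after LD (6.72% of all genes) and 29 in DD after LD (50% of all genes). The permutations under the block do not keep days together, so those p-values may be too small. In DD after LD limma with cosine terms called 29 and upper quartile scaling 1. In DD after SD 1 of the 25 passed an adjusted p under 0.01 and 0 passed with either sample number left out, a design of 6 samples too small to pass. No value that passed the threshold changed sign. The untested DD levels of both genes did, without sample number 6. FPKM hold no counts, and depth was only estimated.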
